A study of Homo sapiens with 6 samples.

Results

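The genes described here are the death receptors of the TNF receptor superfamily with the adaptor and the initiator caspases that act directly below them. They were taken by symbol as a fixed set of 10: TNFRSF10A, TNFRSF10B, TNFRSF10C, TNFRSF10D, FAS, TNFRSF1A, TNFRSF21, FADD, CASP8 and CASP10. Of these, 7 matched a row among the 22718 genes of the count and FPKM tables. TNFRSF10A, TNFRSF10C and TNFRSF10D matched none and were not analysed here, and FAS had too few counts to be tested, so 6 were tested. RNA came from 6 libraries labelled HT1197, the name of an established human bladder carcinoma line, with all dishes seeded from 1 line. For 48 hours the 3 libraries of the vehicle arm (A, B and C), whose condition is labelled untreated, had 1% DMSO, and the 3 of the panobinostat arm (A, B and C) had panobinostat, an inhibitor of histone deacetylases, at 2 times the IC50 given for the line. The labels name DMSO as the vehicle and do not say whether the panobinostat dishes held it too. Cells were seeded in triplicate, but no label ties a library to a dish. P-values here therefore reflect spread among these samples only, and that spread may be technical. The question put to the arms is how these genes' transcript levels differed with the inhibitor.

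A death receptor carries a death domain on its inner side. When the ligand TRAIL binds TNFRSF10A or TNFRSF10B, or the FAS ligand binds FAS, the receptor recruits the adaptor FADD, which gathers caspase-8 and caspase-10. There the caspases cleave themselves into active enzymes and go on to cleave executioner caspases, or the protein BID, which carries the signal to mitochondria. TNFRSF10C and TNFRSF10D bind TRAIL without a working death domain and act as decoys. TNFRSF1A, the main TNF receptor, reaches FADD by way of TRADD and can instead switch on NF-kB. CFLAR, a relative of caspase-8 that lacks its activity, competes for FADD.

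The libraries held 13417898 to 18186087 counts. Levels are given in CPM, the count relative to the library's TMM-scaled total, and 3 counts, used as a floor, equal 0.161 to 0.216 CPM. In each arm, library A differed more from B and C than these did from each other, with a chi-square per gene of 8.08 to 10.7 against 2.67 and 3.21. The label was checked against cell type markers in FPKM, which divides a count by the gene's length and the library's total. Of 15 luminal urothelial markers, 9 had a row and 1, GATA3, stood at 10 FPKM or more with vehicle. KRT8 averaged 0.0115 FPKM and KRT19 0.278 FPKM. Of 11 basal and squamous markers 6 had a row and 0 reached 10 FPKM, the highest being KRT17 at 2.04 FPKM. Of 13 adrenergic neuroblast markers, a list written with these libraries' levels known, 12 stood at 10 FPKM or more and TH averaged 0.0875 FPKM. These markers go against the bladder label, which may be wrong, so the samples are called the libraries labelled HT1197.

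Before the values, the stretches of DNA just upstream of 4 members are shown, since CASP8 was nearly silent with vehicle and FADD, TNFRSF1A and TNFRSF21 were not. They are from RefSeq promoter windows on GRCh38.p14 and end where the first transcript starts in RefSeq or GENCODE, whichever comes first. Each runs 5′ to 3′ on the gene's strand, and capitals mark CG dinucleotides, the sites that DNA methylation can modify.
CASP8, chr2:201233213-201233442 (plus strand): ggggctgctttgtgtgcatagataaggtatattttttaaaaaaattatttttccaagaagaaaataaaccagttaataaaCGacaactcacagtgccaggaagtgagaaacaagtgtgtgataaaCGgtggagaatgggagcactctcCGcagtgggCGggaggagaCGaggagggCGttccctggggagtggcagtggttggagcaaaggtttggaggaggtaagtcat
FADD, chr11:70203046-70203162 (plus strand): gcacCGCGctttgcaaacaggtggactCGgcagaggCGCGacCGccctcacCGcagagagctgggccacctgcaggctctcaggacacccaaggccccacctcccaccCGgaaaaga
TNFRSF1A, chr12:6342115-6342326 (minus strand): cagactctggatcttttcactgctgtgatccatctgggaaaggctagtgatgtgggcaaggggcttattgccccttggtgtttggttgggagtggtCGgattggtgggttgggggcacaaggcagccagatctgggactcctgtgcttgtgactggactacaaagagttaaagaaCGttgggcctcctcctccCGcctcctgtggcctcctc
TNFRSF21, chr6:47309906-47310155 (minus strand): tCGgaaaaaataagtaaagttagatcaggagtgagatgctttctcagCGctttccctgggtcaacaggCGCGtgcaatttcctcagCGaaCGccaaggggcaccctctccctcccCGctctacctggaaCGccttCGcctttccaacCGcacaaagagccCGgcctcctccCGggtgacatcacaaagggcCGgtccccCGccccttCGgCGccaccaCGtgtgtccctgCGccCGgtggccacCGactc

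CG sites were sparse above CASP8 and TNFRSF1A and dense above FADD and TNFRSF21. In the full window of 300 bases, the first start of CASP8 held 6 CG, fewer than the median of 14 over the 35116 windows of the table, and its other starts held 5 and 6. TNFRSF1A held 4, TNFRSF21 held 23 and FADD held 36. FAS, hardly counted in either arm, held 14 to 22 at its 3 starts. In transcript level TNFRSF1A, with the fewest CG, stood well above CASP8 and FAS. The windows of TNFRSF10B and CASP10 were not examined, and a link between CG content and level was not tested. The GC box GGGCGG (either strand) was found 2 times in the FADD window, 1 time each in those of TNFRSF21 and the first start of CASP8, and not in that of TNFRSF1A. Of all windows, 45.0% hold it. These are descriptions of letters in a window, and no methylation or factor binding was measured.

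Of the 6 members tested, 4 were called higher (TNFRSF10B, CASP10, CASP8 and FADD), 1 lower (TNFRSF1A) and 1 was not called (TNFRSF21). Called means that edgeR's quasi-likelihood test, adjusted by Benjamini and Hochberg over all 16084 genes tested, gave a p no higher than 0.05. Of all those genes 65.2% were called, 33.7% higher and 31.5% lower, so 5 calls among 6 is near the general rate. TNFRSF10B, CASP10 and CASP8 had no vehicle library at the abundance filter's minimum of 0.587 CPM and passed the filter on their treated libraries alone. Such genes had to come out higher: of 1063, 1036 were called higher (97.5%) and 0 lower. The values of these 3 below are therefore given as sizes, and their number is no support for a direction of the pathway. The 3 that could go either way, TNFRSF1A, TNFRSF21 and FADD, changed by less than 0.5 on the log2 scale.

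**Figure D1:**
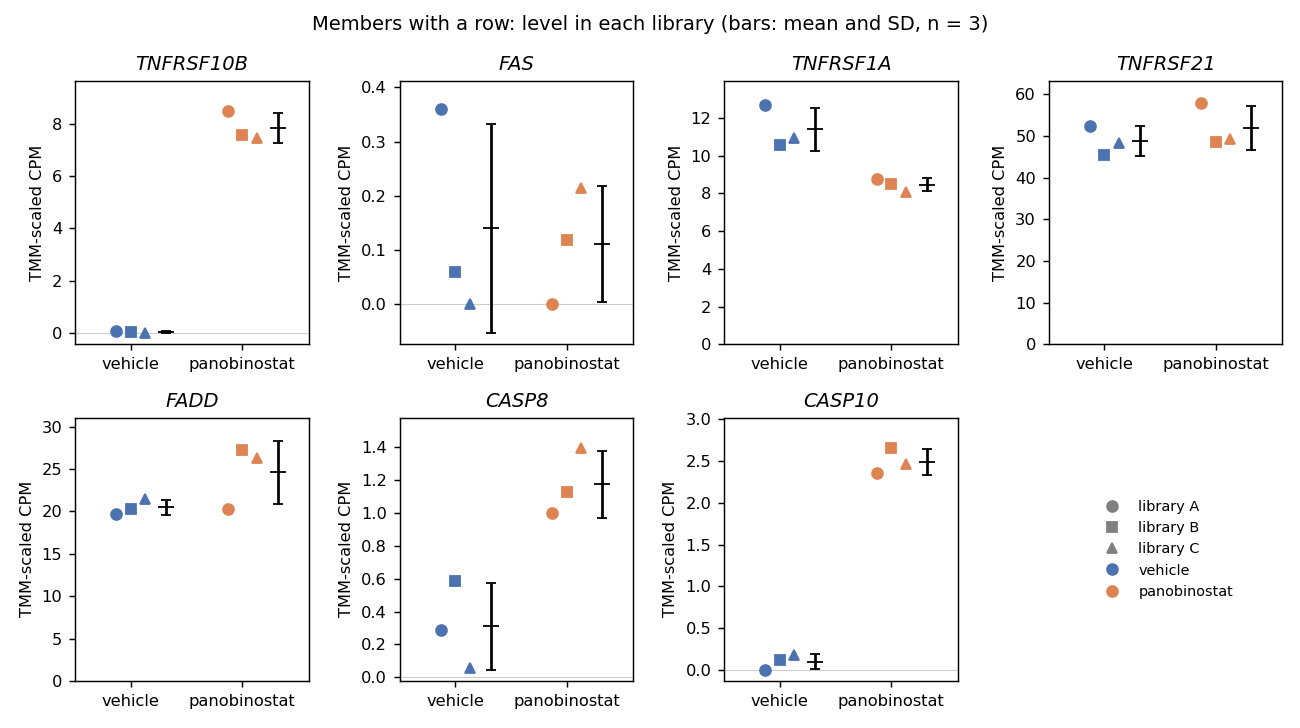
TMM-scaled CPM of the 7 members with a row in each library (symbols by letter, colours by arm), with mean and SD of 3 libraries per arm beside them. TNFRSF10B rose from at most 0.0721 CPM to 7.45 CPM or more, while the arms of FAS, TNFRSF21 and FADD overlap.

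TNFRSF10B (ENSG00000120889), which encodes the TRAIL receptor DR5, lies on chromosome 8 at 23020133 to 23069179 of GRCh38, on the minus strand. With vehicle it had 1, 1 and 0 counts in libraries A, B and C. With panobinostat it had 119, 128 and 139. All vehicle libraries were under the floor of 3 counts and all treated libraries were far above it, so the arms did not overlap; over all genes tested 68.8% had arms that did not overlap. The ratio of the summed, scaled counts was 188, with an exact 95% counting interval of 51.7 to 1557 that covers counting error only. In CPM the level went from 0.0435 ± 0.0383 to 7.84 ± 0.572 (mean ± SD, n = 3). RHOBTB2, a coding gene on the other strand, shares exon sequence with it. Its reads were separated by strand in the authors' counting, and its level differed little, with a log2 fold change of 0.07 ± 0.07 (adjusted p = 0.395, estimate ± SE). The other TRAIL receptors of the set matched no row, so the share of decoys among TRAIL receptors could not be computed.

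FAS (ENSG00000026103, chromosome 10, 88990582 to 89015785, plus strand), the receptor of the FAS ligand, was barely counted in either arm. Its counts were 5, 1 and 0 with vehicle and 0, 2 and 4 with panobinostat, 6 in each arm. The ratio of summed counts was 0.973 with a counting interval of 0.260 to 3.64, and a change within that interval was not detectable at this depth. The arms overlapped, and no library held more than 5 counts, in libraries where TNFRSF10B went from 2 to 386 counts. ACTA2, whose exons overlap FAS on the other strand, fell, with a log2 fold change of -1.18 ± 0.14 (adjusted p = 3.57e-06).

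TNFRSF1A (ENSG00000067182, chromosome 12, 6328757 to 6342114, minus strand), the TNF receptor found on most cells, was the member that fell. It stood at 12.7, 10.6 and 10.9 CPM in vehicle libraries A, B and C and at 8.78, 8.52 and 8.09 CPM in the treated ones. Every treated library lay below every vehicle library. The log2 fold change was -0.43 ± 0.13, a fall of 1.35-fold (adjusted p = 0.00777). The call is lost under upper quartile scaling (-0.29, adjusted p = 0.0576), which moves the median of all genes up by 0.14. It is also lost in limma on all FPKM values (adjusted p = 0.0710 and 0.0822).

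TNFRSF21 (ENSG00000146072, chromosome 6, 47231532 to 47309905, minus strand) encodes DR6, a death receptor known from neurons. It was the most abundant member by FPKM in the vehicle arm. Its levels were 52.5, 45.5 and 48.3 CPM with vehicle and 57.9, 48.4 and 49.2 CPM with panobinostat. The arms overlapped, and library A was the highest in each. The log2 fold change was 0.09 ± 0.09 (adjusted p = 0.412), and under upper quartile scaling it passed at 0.23 (adjusted p = 0.0407).

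FADD (ENSG00000168040, chromosome 11, 70203163 to 70207390, plus strand), the adaptor shared by FAS and the TRAIL receptors, changed little. It stood at 19.7, 20.2 and 21.5 CPM with vehicle and at 20.3, 27.2 and 26.2 CPM with panobinostat. Treated library A lay within the vehicle range, and B and C lay above it. The log2 fold change was 0.27 ± 0.11, or 1.20-fold, at an adjusted p of 0.0483, just inside the threshold. Without treated library A it was 0.38 (adjusted p = 0.00211). The call was lost on leaving out vehicle library A, B or C (adjusted p = 0.108, 0.117 and 0.0724), or treated library B or C (0.213 and 0.153), in DESeq2 (0.117) or with no filter (0.0814).

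CASP8 (ENSG00000064012, chromosome 2, 201233443 to 201287711, plus strand), caspase-8, is the initiator on which both TRAIL and FAS signals rest. It had 4, 10 and 1 counts with vehicle and 14, 19 and 26 with panobinostat. The treated libraries were all above the vehicle ones, but vehicle library B, at 0.585 CPM, came within a factor of 2 of treated library A, at 0.999 CPM. The level rose from 0.310 ± 0.264 to 1.17 ± 0.201 CPM, a log2 fold change of 1.90 ± 0.47. Vehicle library B sets much of its size: the change was 2.81 without it and 1.37 without vehicle library C. Per gene length, treated CASP8 reached 0.168 ± 0.0271 FPKM, far under the 13.9 ± 2.05 FPKM of its adaptor FADD.

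CASP10 (ENSG00000003400, chromosome 2, 201182881 to 201229406, plus strand), the initiator most like caspase-8, moved more. Its counts were 0, 2 and 3 with vehicle and 33, 45 and 46 with panobinostat. No vehicle library had more counts than the floor of 3, and the treated libraries lay close together at 2.36, 2.66 and 2.46 CPM. The ratio of summed counts was 24.1 with a counting interval of 10.1 to 75.7, and the log2 fold change was 4.50 ± 0.44. Without vehicle library C, which held 3 of the 5 vehicle counts, it was 5.11. In FPKM its level ended above that of CASP8, at 0.341 ± 0.0220 against 0.168 ± 0.0271 with no overlap between libraries.

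**Figure D2:**
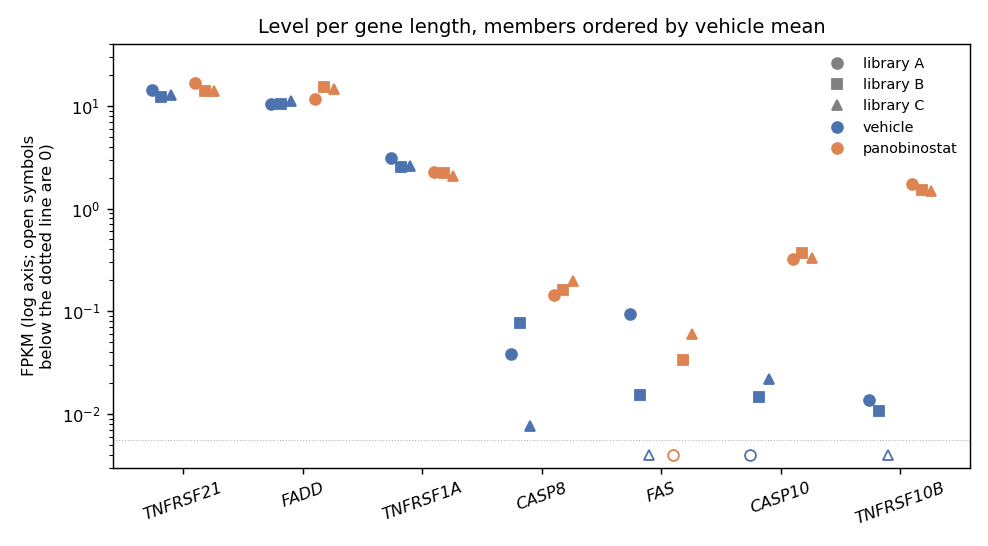
FPKM of each member with a row on a log axis, members ordered by their vehicle mean, 3 libraries per arm; open symbols below the dotted line are libraries at 0. TNFRSF21, FADD and TNFRSF1A stay above 2 FPKM in every library, and TNFRSF10B, CASP10 and CASP8 start under 0.1 FPKM.

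Per gene length, the order of levels with vehicle was TNFRSF21 (13.04 ± 1.06 FPKM), FADD (10.7 ± 0.423) and TNFRSF1A (2.74 ± 0.297), each apart from the next over 3 libraries. CASP8, FAS, CASP10 and TNFRSF10B followed at 0.0412 ± 0.0349, 0.0367 ± 0.0510, 0.0122 ± 0.0111 and 0.00813 ± 0.00718 FPKM, and neighbours in that order overlapped. With panobinostat TNFRSF21 (14.98 ± 1.59) and FADD overlapped. TNFRSF1A (2.19 ± 0.110), TNFRSF10B (1.58 ± 0.125), CASP10, CASP8 and FAS (0.0310 ± 0.0299) each stood apart from the next. TNFRSF10B thus went from the lowest of the 7 to the fourth, next to TNFRSF1A. In bulk RNA, fewer cells with a transcript and less of it per cell cannot be told apart. Because FADD is the called member with the highest mean, the genes nearest to it were sought by distance of log2(CPM + 0.5) over the 6 libraries: MRPL41 (0.186), RFNG (0.207) and ARHGEF1 (0.244).

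**Figure D3:**
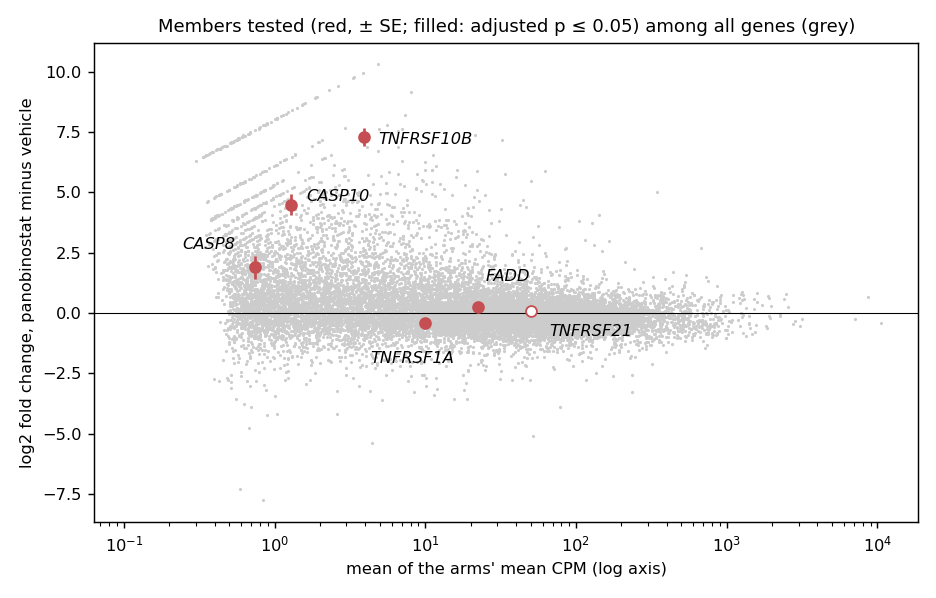
Log2 fold change (panobinostat minus vehicle) against the mean CPM of the arms on a log axis for all genes tested (grey) and the 6 members (red, ± SE, filled where called). TNFRSF10B, CASP10 and CASP8 lie among the low genes that rose, and FADD, TNFRSF1A and TNFRSF21 lie close to 0.

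CFLAR, CASP10 and CASP8 lie side by side on the plus strand of chromosome 2, with 6193 bases between CFLAR (201116104 to 201176687) and CASP10 and 4036 between CASP10 and CASP8. CFLAR was barely counted in either arm, with 4, 2 and 4 with vehicle and 4, 4 and 1 with panobinostat. Its ratio of summed counts was 0.876 with a counting interval of 0.315 to 2.40, below that of CASP10 (10.1 to 75.7) and overlapping that of CASP8 (2.14 to 7.27) at its edge. CFLAR had too few counts to be tested. The ratio of CASP8 to CFLAR in FPKM was 3.12, 15.4 and 0.776 with vehicle and 10.9, 14.7 and 82.3 with panobinostat. Its size depends on the gene lengths behind FPKM: vehicle library A, at 3.12, held 4 counts of each gene. The arms overlapped (exact two-sided permutation test, n = 3 per arm, p = 0.3), and with 3 against 3 the smallest p possible is 0.1, so this test could not pass. The difference of means was 29.5 in FPKM and 9.33 in CPM. With 0.1 FPKM added to both genes it was 1.17 and the arms no longer overlapped (exact p = 0.1). CFLAR stood at 0.0024 to 0.0132 FPKM, so that version mostly follows CASP8 and cannot tell of CASP8 relative to CFLAR. Each of the other ratios rests on 1 to 4 counts of CFLAR.

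**Figure D4:**
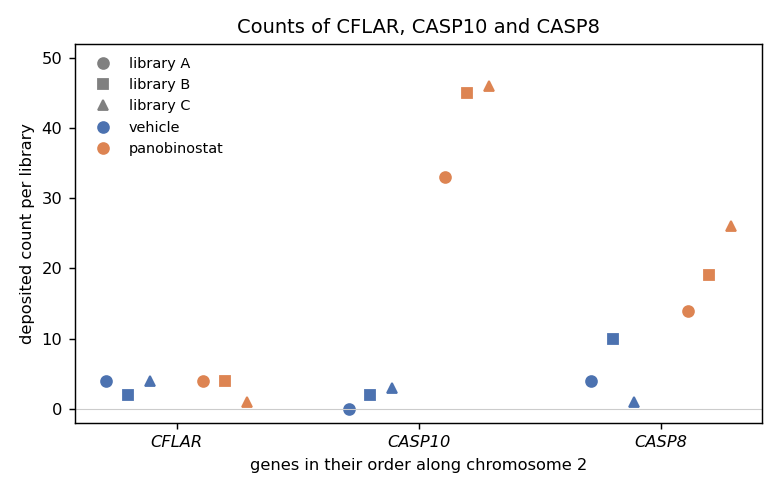
Deposited counts per library of 3 neighbouring genes in their order along chromosome 2, by arm (colour) and letter (symbol). CFLAR stays between 1 and 4 counts in all 6 libraries, CASP10 goes from at most 3 to 33 or more, and CASP8 from at most 10 to 14 or more.

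Since CASP8 and CASP10 are abundant in blood cells, leukocyte markers were set beside them. Of 12 listed, 4 had a row, and their summed level was 0.570 to 1.09 FPKM with vehicle and 0.448 to 0.876 FPKM with panobinostat. PTPRC (CD45) rose from 5 to 45 counts per arm and CSF1R from 2 to 35, while LYZ fell from 72 to 21. PTPRC and CSF1R passed the filter on their treated libraries alone, so they had to come out higher. CD2, at 0 with vehicle, had 10 counts with panobinostat. Of 6 fibroblast markers tested 5 were higher, 1 of them (DCN) through the treated libraries alone, and 1 was lower, where 33.7% and 31.5% of all genes were. The sum of the fibroblast markers went from 10.8 to 13.5 FPKM up to 57.5 to 60.1 FPKM. Most of that rise is 1 gene, LUM, which went from 0.654 ± 0.102 to 42.4 ± 1.09 FPKM. Of 3 endothelial markers tested 2 were higher, both kept through the treated libraries alone, with a sum of 0.105 to 0.154 against 0.554 to 0.564 FPKM. Luminal markers summed to 10.2 to 14.02 against 11.9 to 15.4 FPKM, and basal ones to 2.60 to 2.78 against 4.27 to 4.72 FPKM. The neuroblast markers summed to 2009 to 2283 FPKM with vehicle and to 1616 to 1705 FPKM with panobinostat. The part of these shifts in the members' changes was not tested.

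The rest of the pathway was followed in lists. Over all genes tested, 33.7% were called higher and 31.5% lower, and the median log2 fold change was 0.01. Of 9 death ligands, among them TNFSF10 (TRAIL) and FASLG, 1 had a row: APP, the amyloid precursor, a fragment of which is a reported ligand of DR6. It rose by 0.24 ± 0.07 (adjusted p = 0.00668). Of 5 other death domain or decoy receptors, 2 had a row. NGFR, the p75 neurotrophin receptor, rose from 18.1 ± 1.53 to 31.0 ± 0.903 CPM (adjusted p = 4.44e-06). TNFRSF25, known as DR3, fell from 4.40 ± 0.964 to 1.54 ± 0.445 CPM (adjusted p = 9.26e-05). So the death domain receptors with a row went in both directions.

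Of 17 further members of the TNF receptor superfamily 12 had a row and 11 were tested: 7 rose, 3 fell and 1 did not pass. Among all genes the shares were 33.7% higher and 31.5% lower. Of the 7 rises, 5 were genes kept by the filter through the panobinostat arm alone. Among these CD40, a receptor of antigen-presenting cells, had 0 counts with vehicle and 48, 70 and 67 with panobinostat. TNFRSF12A, the receptor of TWEAK, went from 4 to 196 counts. TNFRSF11A, known as RANK, rose from 4.32 ± 0.401 to 12.97 ± 0.641 CPM. LTBR, the lymphotoxin beta receptor, went the other way, from 4.62, 4.45 and 4.97 CPM to 0.4996, 0.532 and 0.429 CPM, and was 1 gene kept through the vehicle arm alone. Its log2 fold change was -3.25 ± 0.25.

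Among adaptors and scaffolds 3 of 11 tested rose, 5 fell and 3 did not pass, with a median of -0.14. All genes had shares of 33.7% higher and 31.5% lower. TRADD, which links TNFRSF1A to FADD and RIPK1, was low with vehicle at 0.793, 0.702 and 0.982 CPM. It stood at 4.28, 6.80 and 6.05 CPM with panobinostat, all above the vehicle libraries (2.78 ± 0.25 on the log2 scale, adjusted p = 2.26e-07). CRADD, an adaptor of caspase-2, rose by 1.12 ± 0.11 and TNFAIP8 by 0.94 ± 0.10. RIPK1, the kinase of the TNF receptor complex, fell from 15.4 ± 0.377 to 9.38 ± 0.440 CPM, and DEDD, a death effector domain protein, fell by 0.87 ± 0.11. TRADD and its receptor TNFRSF1A thus moved in opposite directions.

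Among inhibitors of death receptor signalling, 9 of 10 had a row and 6 were tested. Of these 0 rose, 1 fell and 5 did not pass (median -0.05), where 33.7% of all genes were higher and 31.5% lower. The fall was in PEA15, which binds FADD and caspase-8, by 0.33 ± 0.12 (adjusted p = 0.0242). Its arms overlapped. The call is lost without vehicle library A or treated library B or C (adjusted p = 0.0998, 0.0761 and 0.125), with library size alone (0.137), upper quartile scaling (0.174) or limma (0.239 to 0.287). XIAP, an inhibitor of caspases, stood at 72.4 ± 6.74 and 63.3 ± 3.74 CPM and did not pass (-0.20 ± 0.08, adjusted p = 0.0544). It passed without vehicle library A (-0.27, adjusted p = 0.00724), without treated library A (-0.24, 0.0233) and with no filter (-0.23, 0.0348). BIRC3 had 0 counts with vehicle and 13 with panobinostat, and TNFAIP3 had 10 and 15.

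Downstream of the initiator caspases, 12 executioner and mitochondrial genes were all kept by the filter in both arms. Of these 7 rose, 3 fell and 2 did not pass (median 0.55), where 33.7% of all genes were called higher and 31.5% lower. CASP9, the initiator of the mitochondrial route, stood at 3.61, 3.803 and 3.70 CPM with vehicle and at 7.49, 9.82 and 9.96 CPM with panobinostat. Every treated library lay above every vehicle library, and it rose by 1.30 ± 0.16 on the log2 scale (adjusted p = 5.03e-06). CASP6 rose by 0.97 ± 0.17 and CASP2 fell by 0.63 ± 0.13. BID, the caspase-8 substrate that joins the receptor route to mitochondria, fell from 70.5, 68.6 and 72.9 CPM to 21.3, 26.4 and 26.6 CPM. Its log2 fold change was -1.51 ± 0.09 (adjusted p = 3.77e-09). The inflammatory caspases had 1 row of 5, CASP4, with 6 and 15 counts and no test.

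In the ubiquitin and NF-kB arm of TNF receptor signalling 4 of 15 rose, 5 fell and 6 did not pass (median -0.08). That is near the 33.7% higher and 31.5% lower of all genes. RBCK1, a subunit of the linear ubiquitin ligase, rose by 0.92 ± 0.08. NFKB1 fell from 35.0 ± 3.36 to 12.8 ± 1.05 CPM (adjusted p = 2.17e-08), NFKBIA fell by 0.57 ± 0.08 and TAB1 by 0.49 ± 0.10. Of 4 necroptosis genes 2 had a row. MLKL, the protein that ruptures the membrane, went from 3 to 50 counts and was kept by the filter through the panobinostat arm. PGAM5, a mitochondrial phosphatase, fell by 0.63 ± 0.08. Of 4 glycosylation genes linked to TRAIL receptors 1 had a row, GALNT14, which fell by 1.09 ± 0.08 (adjusted p = 4.11e-08).

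**Figure D5:**
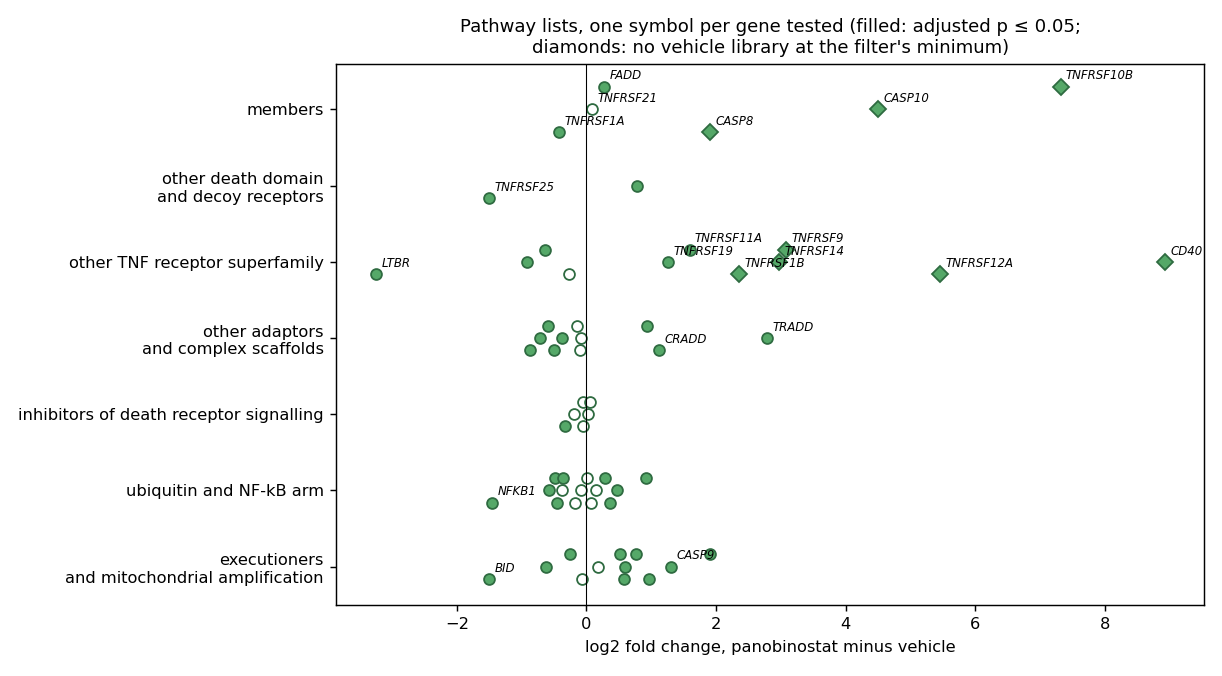
Log2 fold change (panobinostat minus vehicle) of every tested gene in the members' set and 6 pathway lists, filled where the adjusted p is 0.05 or less, with diamonds for genes that had no vehicle library at the filter's minimum. The executioner list lies mostly to the right of 0 without diamonds. In the members' set and the other TNF receptor superfamily the largest rises are diamonds. Their fitted sizes (such as that of CD40, at 0 with vehicle) rest on few or no vehicle counts. The other death domain and decoy receptors have no diamond. LTBR, at -3.25, is a circle though it was kept through the vehicle arm alone.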

How the data were processed

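RNA was sequenced from 6 libraries labelled HT1197, whose arms and letters were read from the titles. Per the file headers, the authors counted reads per gene with featureCounts 1.5.0-p3 on Ensembl release 84 (GRCh38), by strand (option 2) and by largest overlap. The submitters' processing notes name featureCounts 1.5.1, Subread, Novoalign 2.8 and hg38. FPKM values are the authors' own, deposited beside the counts. Each gene's length was worked back from the FPKM of its library with the most counts, where agreement is given. With these, all 64991 of 64991 FPKM values with 100 counts or more agreed to 1% with a count over length and library total. Within a gene both units thus hold the same measurement. The lengths, on which comparisons between genes rest, were not checked.

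GENCODE release 29 gave symbols and GRCh38 positions for 22459 of 22718 identifiers. After filterByExpr (at least 10 counts, 15 in total) and TMM scaling, edgeR 4.0.16 in R 4.3.3 ran its quasi-likelihood test with no covariate. The same steps were tested on simulated data. SE is the log2 fold change over the square root of F. Alternatives were DESeq2 1.42.0, other scalings and filters, the letter as a block, limma 3.58.1 on FPKM, and each library left out. Depth was 13417898 to 18186087 counts, and intervals cover counting error only.

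The members and gene lists were chosen with earlier results of these data known. All members are named. Each list adds up to 4 called genes, those that changed most among genes averaging at least 1 CPM, plus CFLAR, TNFSF10, TRADD, RIPK1, BID and XIAP. Some items this rule names are not reported here. FASLG, CASP2, CASP4, BIRC3, TNFAIP3, MLKL, RHOBTB2, ACTA2 and the markers were named after their values were seen.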

Additional observations from a re-analysis of the deposited data

How the results depend on the processing

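FADD, TNFRSF1A and TNFRSF21 had 51 alternative values, of which 39 kept their direction and side of the threshold, 11 lost a call, 1 gained one and 0 reversed. The 47 values of TNFRSF10B, CASP10 and CASP8 all stayed called higher, an outcome that the filter largely fixes. On the log2(FPKM + 1) scale their changes were 1.35, 0.41 and 0.17, since the pseudocount exceeds their levels with vehicle. For 25 other genes followed, CD40 and TNFRSF12A (kept by the same filter route) among them, these numbers were 409, 9, 3 and 0 of 421. Members called lower went from 1 to 0 with upper quartile scaling and with limma on all log2(FPKM + 1) or log2(FPKM + 0.1) values. Members called higher went from 4 to 1 with limma on genes of 1 FPKM or more, where fewer members are tested. Over all genes, the median change shifted up by 0.14 (log2) under upper quartile scaling and by 0.11 with library size alone. The share of calls that were higher was 51.7% as reported, 63.2% with upper quartile scaling, 61.0% with library size alone, and 64.7% and 65.0% with limma on all values. With 1 library left out, 5026 to 5575 genes were higher and 4542 to 5093 lower, with 3 to 4 members higher and 1 to 1 lower. The difference in the CASP8 to CFLAR ratio was 29.5, with a range of 6.37 to 42.04 when 1 library was left out. The treated library C sets most of it. In CPM the difference was 9.33, and with 0.1 FPKM added, a version that mostly follows CASP8, it was 1.17. Taking the letter as a replicate block gave 5432 higher and 5109 lower genes, and 4 and 1 members. Same-letter deviations correlated at 0.119, -0.0469 and 0.213 for A, B and C. For A and C these were the highest values of those libraries. The crossed pairs of A and C stood at -0.195 and -0.157. Deviations were taken from each arm's mean, so the values of a library against the other arm tend to cancel. The negative crossed values are therefore no separate support for a pairing. Vehicle library B correlated best with treated library C (0.0707). Same-letter libraries thus correlated best for A and C only. These few values cannot decide whether the letters mark a pairing, and a source of it was not tested. The share of decoys among TRAIL receptors was not run, since 3 of the genes it needs matched no row. FAS and CFLAR are limited by depth.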
